A study of Mus musculus with 20 samples.

Results

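The sirtuins are 7 genes of the mouse, Sirt1 to Sirt7, and their messenger RNA was followed in the livers of wild-type and Sirt2 knockout mice with and without repeated cold exposure. The members were found by gene symbol, and all 7 were present among the 45306 genes of the table and passed the filter on low counts. Sirtuins remove acetyl and other acyl groups from lysines, and each cycle consumes NAD, so that their activity is tied to the energy state of the cell. Sirt1, Sirt6 and Sirt7 act mainly in the nucleus, Sirt2 mainly in the cytosol and Sirt3, Sirt4 and Sirt5 in mitochondria. In the liver, members of the family are known to deacylate enzymes and transcription factors of glucose production, fatty acid oxidation, ketone body formation and the urea cycle.

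Livers came from 20 mice on a C57BL/6 background, each giving a library of its own, and 4 groups held 5 mice each, aged 5 weeks at the start. Control mice were wild type and kept at room temperature, and CE mice were wild type and held at 4 °C for 3 h on each day over 3 weeks. Sirt2-/- mice carried the knockout and were kept at room temperature, and Sirt2-/-/CE mice carried the knockout and went through the same cold exposure. The knockout was made by injecting fertilized eggs with ribonucleoproteins directed at exons 5 to 7 of Sirt2, so it is not limited to the liver or to adult life, and differences in liver RNA cannot be assigned to hepatocytes or to the adult animal. The sex of the mice, the number of founders and the hour of tissue collection are not given in the sources used here.

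Total counts per mouse ranged from 35499796 to 53917339. The 5 hepatocyte markers summed to between 73990 and 164100 CPM (counts scaled to library size by edgeR's TMM method), so the defining markers of the labelled tissue were abundant, while 1 of 3 muscle markers and 1 of 3 adipocyte markers were at 0 in all libraries. The 4 cholangiocyte markers summed to 35.2 to 74.1 CPM in Control and 34.8 to 62.4 in CE, but to 26.0 to 41.5 in Sirt2-/- and 22.4 to 38.2 in Sirt2-/-/CE, ranges that lay lower with the genotype and overlapped. The 4 measured Kupffer cell markers summed to 75.8 to 257.3 CPM in Control, 75.0 to 292.0 in CE, 161.1 to 301.3 in Sirt2-/- and 208.3 to 342.6 in Sirt2-/-/CE. The 4 endothelial markers summed to 25.5 to 121.8 CPM in CE and 130.7 to 205.2 in Sirt2-/-/CE, without overlap, and to 40.2 to 174.3 and 69.3 to 195.6 in Control and Sirt2-/-. The 4 pancreas markers, low in all mice, summed to 4.829 to 5.596 CPM in Sirt2-/- and 6.16 to 18.9 in Sirt2-/-/CE, without overlap, and their part in differences between these groups was not tested. In whole liver, fewer cells of a type and less RNA per cell cannot be told apart. Genes of the circadian clock also differed between mice. A clock score in centred log2 CPM was computed by averaging 5 genes of 1 arm (Per3, Dbp, Ciart, Tef, Nr1d2) and subtracting the average of 3 genes of the opposing arm (Clock, Arntl, Npas2). It was 2.73 ± 0.82 (SD, n = 5) in Control, -0.24 ± 2.57 in CE, -1.54 ± 4.21 in Sirt2-/- and -0.95 ± 2.18 in Sirt2-/-/CE. The lowest scores were those of CE replicate 9, Sirt2-/- replicates 14 and 15 and Sirt2-/-/CE replicate 19, at -4.52, -5.72, -6.48 and -4.69.

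The part of Sirt2 that the knockout was aimed at and the catalytic core that the family shares were read from the GENCODE vM21 annotation on GRCm38. Sirt2 (ENSMUSG00000015149) lies on the forward strand of chromosome 7 from 28766735 to 28788661, and exons 5, 6 and 7 of transcript Sirt2-201 span chr7:28776858-28777247. Together these exons hold 206 coding bases, 11.2% of the transcript, printed joined and 5′ to 3′ with exon 6 in capitals, because they are the coding bases that the knockout was aimed at while counts come from the whole gene.
Sirt2 exons 5 to 7: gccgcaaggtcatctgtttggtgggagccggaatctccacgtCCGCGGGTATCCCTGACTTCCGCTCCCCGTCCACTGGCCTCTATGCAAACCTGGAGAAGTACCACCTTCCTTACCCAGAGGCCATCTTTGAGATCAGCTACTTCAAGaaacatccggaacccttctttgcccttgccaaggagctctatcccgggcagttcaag

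The translated coding sequences of the 7 members were aligned, and 24 positions were identical in all of them. Of these, 0 lay before the codons touched by exons 5 to 7 (codons 76 to 144 of Sirt2), 7 lay within them and 17 lay after them. The Sirt3 transcript used encodes only 257 residues, with the aligned histidine at codon 106. Much of Sirt2 before codon 76 may thus have no Sirt3 counterpart, and the 0 is no measure of conservation there. One position after the targeted codons is the histidine of the catalytic site, codon 187 of Sirt2, which lies before a glycine in every member. A transcript that joined exon 4 to exon 8 would change reading frame, since 206 divided by 3 leaves 2. Such a transcript would reach a stop after 152 codons, and codon 187 would not be read in frame. The paper reports that immunoblots of knockout livers showed no Sirt2 protein. The 57 coding bases around the histidine codon are shown for each member, 5′ to 3′ on the coding strand with that codon in capitals, to let the shared site and the divergence around it be compared.
Sirt1 (codon 355): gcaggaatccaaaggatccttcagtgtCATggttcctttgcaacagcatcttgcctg
Sirt2 (codon 187): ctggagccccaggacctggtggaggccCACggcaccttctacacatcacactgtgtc
Sirt3 (codon 106): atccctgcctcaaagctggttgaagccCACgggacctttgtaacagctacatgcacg
Sirt4 (codon 158): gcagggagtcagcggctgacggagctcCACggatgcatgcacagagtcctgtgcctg
Sirt5 (codon 158): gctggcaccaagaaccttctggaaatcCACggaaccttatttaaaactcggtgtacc
Sirt6 (codon 133): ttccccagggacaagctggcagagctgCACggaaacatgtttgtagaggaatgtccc
Sirt7 (codon 188): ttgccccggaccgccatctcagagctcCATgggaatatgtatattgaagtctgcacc

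Sirt2 and Sirt3 were the most alike pair, with 55.3% identical residues over 257 aligned, followed by Sirt1 with Sirt2 (43.3%), Sirt1 with Sirt3 (43.1%) and Sirt6 with Sirt7 (40.8%). Sirt5 and Sirt6 were the least alike, at 24.0%. The transcripts used encode 737 residues for Sirt1, 389 for Sirt2, 257 for Sirt3, 333 for Sirt4, 310 for Sirt5, 334 for Sirt6 and 402 for Sirt7. None of the 7 genes has a position in common with another, since Sirt1 (63319005 to 63381704) and Sirt6 (81621785 to 81627797) lie apart on chromosome 10, Sirt3 lies on chromosome 7 from 140863666 to 140882309, and Sirt4, Sirt5 and Sirt7 lie on chromosomes 5, 13 and 11.

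Sirt3, the main deacetylase of mitochondria, was the most abundant sirtuin of the liver in every mouse. Levels of different genes were compared per length, in the FPKM values that the authors deposited. The mean over the 20 mice was 48.8 FPKM for Sirt3, 16.98 for Sirt2, 16.4 for Sirt7, 5.42 for Sirt5, 3.48 for Sirt4, 1.95 for Sirt1 and 1.02 for Sirt6. Sirt3 exceeded Sirt2 in 20 of 20 mice, by a median ratio of 2.79 and a range from 1.79 to 5.39. Sirt7, which acts in the nucleolus, exceeded Sirt5, the desuccinylase of mitochondria, in 20 of 20 mice. Sirt2 was above Sirt7 in 10 of 10 wild-type mice and in 0 of 10 knockout mice. The lower end of the order was less firm. Sirt5 was above Sirt4 in 19 of 20 mice, Sirt4 above Sirt1 in 19 of 20 and Sirt1 above Sirt6 in 18 of 20, and both exceptions of the last pair were Sirt2-/- mice. Sirt4, Sirt1 and Sirt5 change places when CPM are divided by the length of all annotated exons instead, so their order depends on which length is used, while Sirt3 stays first and Sirt6 last. The counts and FPKM of Sirt2 imply a length of 1890 to 1968 bases over the 20 mice, and those of Sirt1 a length of 3542 to 4679 bases, so the length behind the FPKM of Sirt1 varied more between mice.

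**Figure D1:**
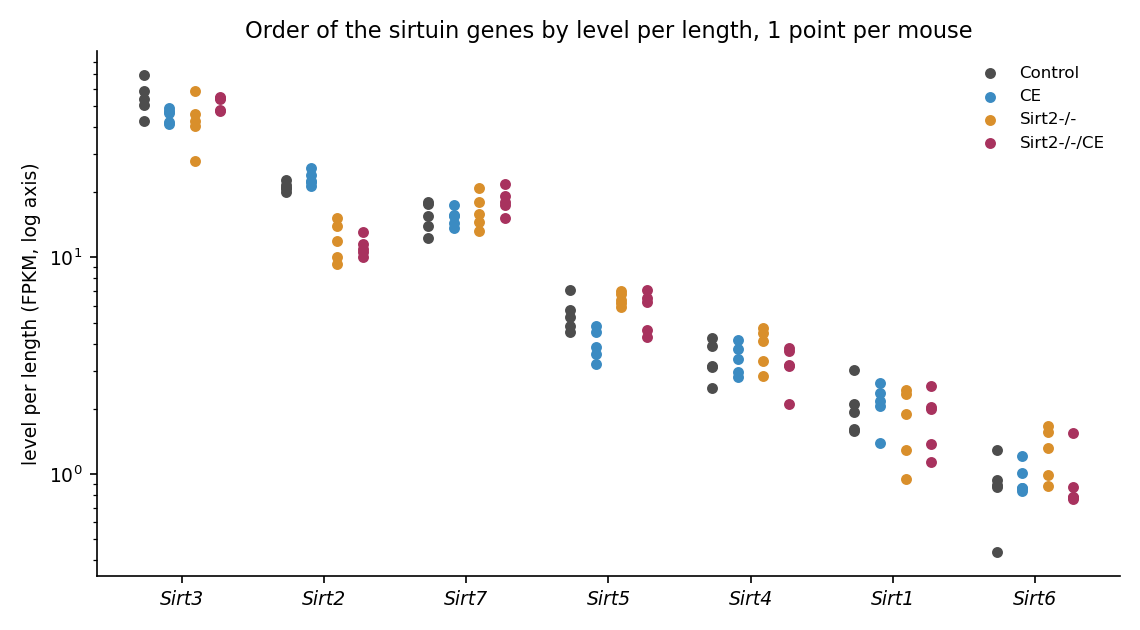
FPKM of the 7 sirtuin genes in each of the 20 mice on a log axis, ordered by the mean and coloured by group. Sirt3 is highest in every mouse, and the knockout mice have Sirt2 below Sirt7 while the wild-type mice have it above.

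Among all tested genes, Sirt3 stood at the 92.6th percentile of mean FPKM, Sirt2 at the 82.8th, Sirt7 at the 82.4th, Sirt5 at the 62.9th, Sirt4 at the 54.1st, Sirt1 at the 43.1st and Sirt6 at the 32.5th. The abundant members were also the steadier ones between mice of a group. The biological coefficient of variation fitted by edgeR was 18.2% for Sirt2, 18.5% for Sirt7, 21.2% for Sirt3, 21.4% for Sirt5, 22.5% for Sirt4, 27.6% for Sirt6 and 30.5% for Sirt1, against a median of 30.1% over all tested genes. The counts behind these values ranged from 1378 to 5299 for Sirt3 and from 708 to 2427 for Sirt2, but only from 35 to 127 for Sirt6.

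The summed FPKM of the 7 genes was 103.7 ± 10.6 (SD, n = 5) in Control, 94.4 ± 3.30 in CE, 85.1 ± 14.3 in Sirt2-/- and 93.2 ± 4.75 in Sirt2-/-/CE. Without Sirt2 it was 82.4 ± 9.78, 71.2 ± 2.08, 73.0 ± 12.5 and 81.9 ± 3.86 in the same order. The mice ran from 71.8 to 96.6 FPKM in Control and from 57.6 to 91.4 in Sirt2-/-, which overlapped, and from 68.6 to 73.5 in CE and from 78.0 to 87.6 in Sirt2-/-/CE, which did not. These sums were not tested. The deposited FPKM come without the TMM scaling used for CPM. Scaling by library size only shifted the median of all genes by 0.09 on the log2 scale between Sirt2-/-/CE and CE. Whether the sums of these groups overlap can therefore depend on the scaling. Sirt3 made up 52.8% ± 4.78 of the sum in Control, 47.9% ± 2.31 in CE, 50.2% ± 6.49 in Sirt2-/- and 55.6% ± 3.52 in Sirt2-/-/CE. The share of Sirt2 was 20.7% ± 1.40 in Control and 24.6% ± 1.22 in CE, and 14.2% ± 1.89 and 12.1% ± 0.816 in the knockout groups. Sirt7 held 15.1% ± 2.85 in Control, 16.3% ± 1.83 in CE, 19.6% ± 3.28 in Sirt2-/- and 19.7% ± 1.99 in Sirt2-/-/CE. These shares sum to a whole, and a lower share of Sirt2 raises the shares of the others by construction.

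Sirt2, the targeted gene and a cytosolic deacetylase of tubulin and of metabolic enzymes, was lower in every knockout mouse than in every wild-type mouse, and its messenger RNA was still present in all of them. The Control mice had 42.4, 41.6, 44.5, 41.3 and 41.5 CPM. The CE mice had 43.4, 45.2, 56.2, 40.2 and 48.0 CPM. The Sirt2-/- mice had 17.3, 21.3, 26.7, 27.5 and 16.9 CPM, and the Sirt2-/-/CE mice had 27.5, 19.4, 20.9, 18.97 and 21.1 CPM. Control mice lay closest together, and the lowest wild-type mouse was far above the highest knockout mouse. With edgeR's quasi-likelihood test (two-sided, p adjusted over 15616 genes by the Benjamini-Hochberg method), the log2 fold change between Sirt2-/- and Control was -0.94 (95% interval -1.25 to -0.64, adjusted p = 0.0145), and it was -1.11 between Sirt2-/-/CE and CE (-1.42 to -0.81, adjusted p = 0.0043). Sirt2 was the only sirtuin called in either comparison, 1 of 7, where 0.89% and 0.0128% of all genes were called. It was also the only member whose mice did not overlap between the groups, which held for 3.61% and 1.22% of all genes. Between Sirt2-/-/CE and Control, a pair that shares mice with the others, the log2 fold change was -0.97 (-1.28 to -0.66, adjusted p = 0.0169), with 1 of 7 sirtuins called against 0.122% of all genes and 2.71% of genes without overlap. That call was lost without Control replicates 1, 2 or 3 or Sirt2-/-/CE replicate 19 (highest edgeR adjusted p = 0.0839) and with the clock score as a covariate (log2 fold change -0.89, edgeR adjusted p = 0.113). A transcript that lost the 206 targeted bases and kept its abundance would have 0.17 less on the log2 scale if reads fell evenly along it. Reads over the single exons were not analysed here.

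Over both treatments together, Sirt2 had a log2 fold change of -1.03 with the genotype (-1.25 to -0.81, adjusted p = 5.75e-05), lower in 10 of 10 mice. It ranked 1st of 15616 genes by p, and 1 of 7 sirtuins was called, against 0.186% of all genes. Only 4 genes of all those tested, 0.0256%, had no overlap between the 10 knockout and the 10 wild-type mice. The others, named after their values were seen, were Atp11a, a lipid flippase, Scara5, a scavenger receptor for ferritin, and Cyb561, a transmembrane electron carrier. The call of Sirt2 over both treatments held in each of 9 alternatives and without each of the 20 mice. Between Sirt2-/- and Control it was lost with the clock score as a covariate (log2 fold change -0.85, edgeR adjusted p = 0.16) and without the 4 mice of lowest clock score (-0.95, edgeR adjusted p = 0.215), an alternative chosen after seeing the data, and the adjusted p ran from 1.32e-06 to 0.215 over 10 alternatives. Between Sirt2-/-/CE and CE it was lost when only the 2 groups compared were fitted (log2 fold change again -1.11, edgeR adjusted p = 0.0848), in a range from 6.53e-09 to 0.0848. The fits that lost these calls called 0 of 15616, 0 of 15982 and 0 of 14603 genes, in the order given. Within a group, Sirt2 and the clock score had a Pearson r of 0.28 over the 20 mice. The part of the cholangiocyte and endothelial markers in this result was not tested.

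**Figure D2:**
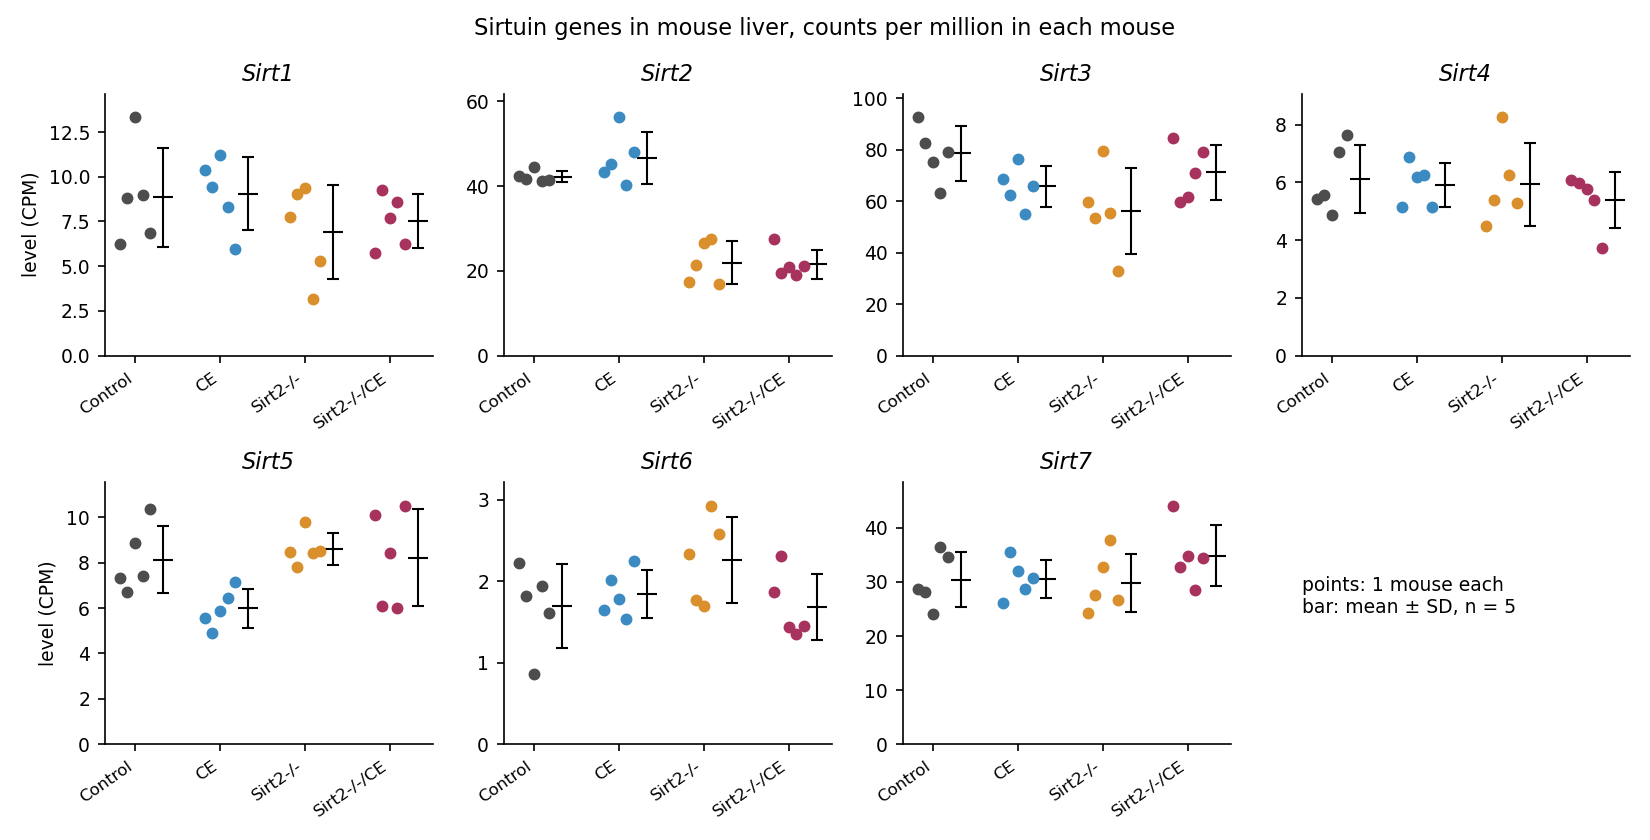
CPM of each sirtuin gene in each mouse, by group, with the mean and SD of 5 mice beside the points. The Sirt2 values of the 10 knockout mice lie between 16.9 and 27.5 CPM and those of the 10 wild-type mice between 40.2 and 56.2, while the groups overlap for the other 6 genes.

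A difference of Sirt2 with cold was not detectable beyond the spread between mice. Its log2 fold change was 0.14 between CE and Control (-0.16 to 0.44, edgeR adjusted p = 0.805) and -0.03 between Sirt2-/-/CE and Sirt2-/- (-0.33 to 0.28, edgeR adjusted p = 0.996). The interaction of genotype and cold for Sirt2 was -0.17 (-0.60 to 0.26, edgeR adjusted p = 0.895). The highest wild-type value, 56.2 CPM in CE replicate 8, was the one furthest from its group.

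Across the family, edgeR called 0 of 7 sirtuins between CE and Control (0.0064% of all genes), 0 of 7 between Sirt2-/-/CE and Sirt2-/- (0%), 0 of 7 for cold over both genotypes (0%) and 0 of 7 for the interaction (0%). At an unadjusted p under 0.05 there was 1 sirtuin between CE and Control, where 10.7% of all genes had such a p, 0 between Sirt2-/-/CE and Sirt2-/- (7.25%), 0 for cold over both genotypes (9.48%), and 1 for the interaction, against 8.34% of all genes. DESeq2 and limma voom also called 0 sirtuins in these 4 comparisons, where DESeq2 called 1.04%, 0.0449%, 0.483% and 0.268% of all genes and limma voom 3.46%, 0%, 0.307% and 0%, in the order just given. In the genotype comparisons 2 sirtuins had an unadjusted p under 0.05 between Sirt2-/- and Control (14.9% of all genes), 2 between Sirt2-/-/CE and CE (6.09%), 1 between Sirt2-/-/CE and Control (11.2%) and 2 for the genotype over both treatments (13.8%), each count with Sirt2 in it. The other members behind these counts were Sirt3 and Sirt5.

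**Figure D3:**
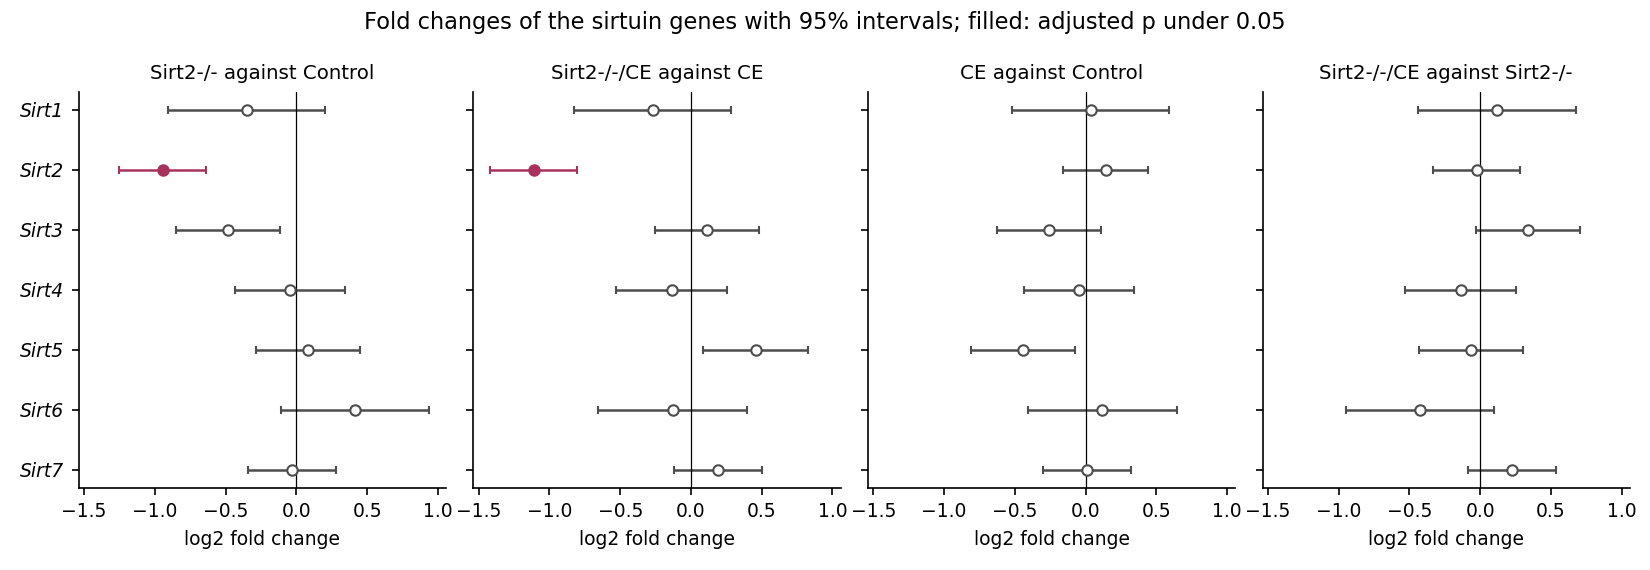
Log2 fold change of each sirtuin with its 95% interval in the comparisons of genotype (left pair) and of cold (right pair), 5 mice per group. Sirt2 in the genotype comparisons is the filled point, at -0.94 and -1.11, and apart from it only Sirt3 between Sirt2-/- and Control and Sirt5 between CE and Control and between Sirt2-/-/CE and CE have intervals that do not reach 0.

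Among the mitochondrial members, Sirt3, which deacetylates enzymes of fatty acid oxidation and of the respiratory chain, had its lowest mean in Sirt2-/- and its highest in Control. The Control mice had 92.7, 82.6, 75.3, 63.4 and 79.2 CPM, and the CE mice had 68.8, 62.3, 76.6, 55.1 and 66.1. The Sirt2-/- mice had 59.8, 53.5, 79.6, 55.6 and 32.9 CPM, and the Sirt2-/-/CE mice had 84.7, 59.7, 61.6, 71.0 and 79.0. The groups overlapped, and replicate 13 of Sirt2-/- lay within the Control range while replicate 15 lay far below all other mice. The log2 fold change between Sirt2-/- and Control was -0.48 (-0.85 to -0.12, edgeR adjusted p = 0.19) and did not pass the threshold, with 4 of the 5 mice below the Control mean. Between Sirt2-/-/CE and CE it was 0.11 (-0.25 to 0.48, edgeR adjusted p = 0.971).

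In the edgeR fit, Sirt6 had an interaction of genotype and cold of -0.55 (-1.29 to 0.20, edgeR adjusted p = 0.716). Sirt3 had the largest in size among the 7 members, not far above that of Sirt6. For Sirt3 the groups were as follows. All 5 CE mice lay below the Control mean, with a log2 fold change of -0.26 (-0.62 to 0.11, edgeR adjusted p = 0.657), and all 5 Sirt2-/-/CE mice lay above the Sirt2-/- mean, with 0.34 (-0.03 to 0.71, edgeR adjusted p = 0.707), a value that was 0.18 without Sirt2-/- replicate 15 and 0.13 without the 4 mice of lowest clock score. The interaction was 0.60 (0.08 to 1.12, edgeR adjusted p = 0.529) and did not pass after adjustment. Sirt3 had the highest r with the clock score among the sirtuins. With group means removed, their Pearson r was 0.63 (Spearman rho 0.59) over the 20 mice, and its absolute r stood at the 95.8th percentile of all tested genes. The mice share their libraries' scaling and the score, so this r is a description. With the clock score as a covariate, the log2 fold change of Sirt3 between Sirt2-/- and Control was -0.23 (edgeR adjusted p = 0.899) and the interaction was 0.41 (edgeR adjusted p = 0.885). Without the 4 mice of lowest score they were -0.29 and 0.32, and limma voom with sample weights, which called 5.8% of all genes, called Sirt3 between Sirt2-/- and Control (-0.56, adjusted p = 0.0205). Without Sirt2-/- replicate 15 the edgeR value was -0.34, and without replicate 13 it was -0.64.

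**Figure D4:**
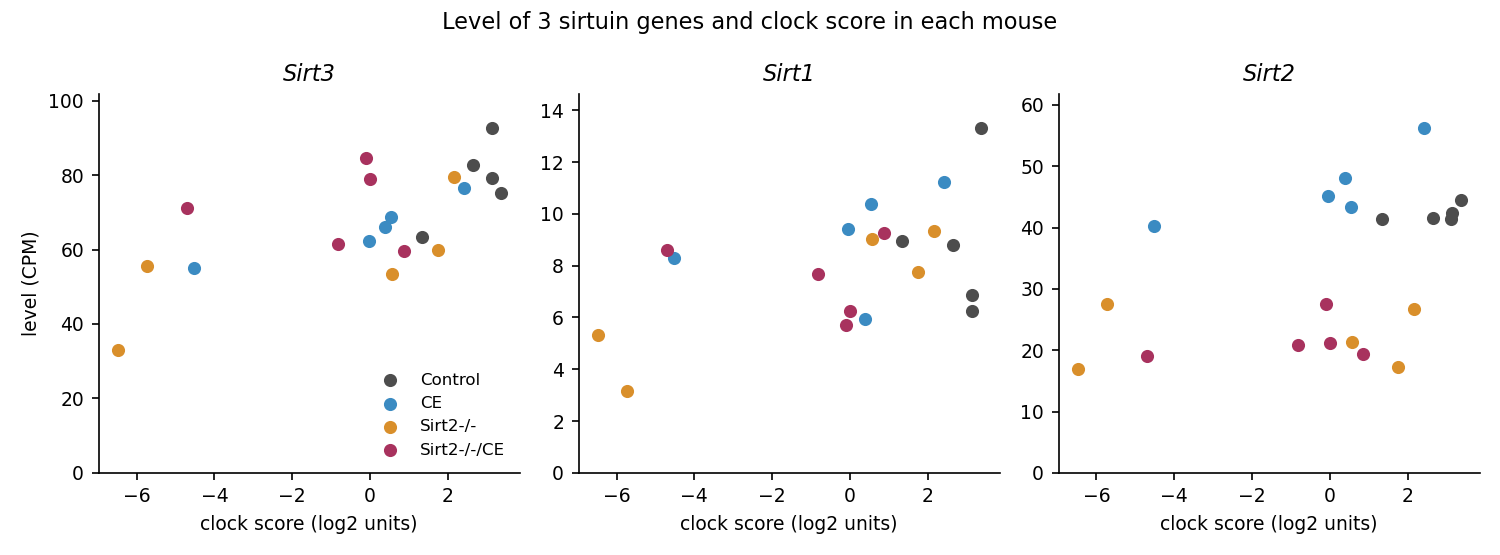
CPM of Sirt3, Sirt1 and Sirt2 against the clock score of each mouse, coloured by group. Sirt3 is lowest, at 32.9 CPM, in the mouse with the lowest score, -6.48, and the Control mice have scores from 1.33 to 3.36.

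Sirt5, which removes succinyl and malonyl groups in mitochondria and acts on the urea cycle enzyme Cps1, was lowest in the CE group. The Control mice had 7.33, 6.70, 8.86, 7.39 and 10.4 CPM, and the CE mice had 5.58, 4.91, 5.86, 6.42 and 7.16. The Sirt2-/- mice had 8.49, 7.82, 9.79, 8.44 and 8.51 CPM, and the Sirt2-/-/CE mice had 10.1, 6.09, 8.42, 5.99 and 10.5. The CE mice lay below the Control mean in 5 of 5 cases and overlapped Control only through CE replicate 10, while the Sirt2-/-/CE mice ran from 5.99 to 10.5 CPM, with 3 of the 5 CE mice below that range. For Sirt5 the log2 fold change of CE over Control was -0.44 (-0.81 to -0.07, edgeR adjusted p = 0.369; exact two-sided permutation p = 0.0159). That of Sirt2-/-/CE over CE was 0.46 (0.09 to 0.83, edgeR adjusted p = 0.665; exact two-sided permutation p = 0.0714), and all 5 lay above the CE mean. Both use the CE mice, so they are not independent, and the endothelial markers did not overlap between the last 2 groups, a difference whose part was not tested. Over both treatments the difference with genotype was 0.27 (0.01 to 0.53, edgeR adjusted p = 0.342), and over both genotypes the difference with cold was -0.25 (-0.52 to 0.01, edgeR adjusted p = 0.543). None passed the adjustment.

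Sirt4, a mitochondrial member that is known to act on glutamate dehydrogenase, showed no difference beyond the spread between mice. It ranged from 4.89 to 7.66 CPM in Control, 5.14 to 6.87 in CE, 4.50 to 8.26 in Sirt2-/- and 3.75 to 6.08 in Sirt2-/-/CE. Its log2 fold changes were -0.05 between CE and Control (-0.44 to 0.34), -0.05 between Sirt2-/- and Control (-0.44 to 0.35), -0.14 between Sirt2-/-/CE and Sirt2-/- (-0.53 to 0.25) and -0.14 between Sirt2-/-/CE and CE (-0.53 to 0.26). The sign between Sirt2-/- and Control turned with scaling by library size only, to 0.09, under which the median of all genes shifted by 0.14. Every interval of the edgeR fit spanned 0, so changes of the size of its bounds could not be told from none with these mice.

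Among the nuclear members, Sirt1, which deacetylates Ppargc1a, Foxo proteins and p53, varied most. It ranged from 6.26 to 13.3 CPM in Control, 5.95 to 11.2 in CE, 3.17 to 9.35 in Sirt2-/- and 5.71 to 9.28 in Sirt2-/-/CE. The lowest values, 3.17 and 5.31 CPM, were those of Sirt2-/- replicates 14 and 15, which also had the lowest clock scores, and the Pearson r of Sirt1 with the score was 0.50 with group means removed. The log2 fold change was -0.35 between Sirt2-/- and Control (-0.91 to 0.21, edgeR adjusted p = 0.58). It was -0.17 without Control replicate 3 or without Sirt2-/- replicate 14, and -0.36 to -0.01 over the alternatives that leave out no single mouse. For Sirt2-/-/CE against CE it was -0.27 (-0.83 to 0.29, edgeR adjusted p = 0.948). With cold it was 0.04 in wild-type mice (-0.52 to 0.59) and 0.12 in knockout mice (-0.44 to 0.67).

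Sirt6, a deacetylase of histone H3 that restrains genes of glycolysis, was the rarest member and had its highest mean in Sirt2-/-. It ranged from 0.863 to 2.22 CPM in Control, 1.53 to 2.25 in CE, 1.70 to 2.92 in Sirt2-/- and 1.35 to 2.30 in Sirt2-/-/CE. All 5 Sirt2-/- mice lay above the Control mean, and the log2 fold change of 0.42 (-0.11 to 0.94, edgeR adjusted p = 0.463) was within the spread between mice. It was 0.24 without Control replicate 3, the mouse with 35 counts, and 0.16 to 0.55 over the other alternatives. Between Sirt2-/-/CE and Sirt2-/- it was -0.43 (-0.95 to 0.10, edgeR adjusted p = 0.763). Sirt7, which deacetylates histone H3 and is known for its role in ribosomal RNA synthesis, had 30.4 ± 5.05 CPM (SD, n = 5) in Control, 30.6 ± 3.52 in CE, 29.8 ± 5.41 in Sirt2-/- and 34.9 ± 5.69 in Sirt2-/-/CE. Its largest difference among these pairs was 0.23 between Sirt2-/-/CE and Sirt2-/- (-0.08 to 0.54, edgeR adjusted p = 0.803), and its highest mouse was Sirt2-/-/CE replicate 16 at 44.1 CPM, the same mouse that had the highest Sirt2 and Sirt3 of its group. Its difference between Sirt2-/- and Control, -0.03, also turned sign with scaling by library size only, to 0.11.

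The members were compared with each other over the 20 mice after group means had been removed. Of the 21 pairs, the highest Pearson r were 0.65 for Sirt2 and Sirt7 (Spearman rho 0.53), 0.65 for Sirt4 and Sirt7 (rho 0.70) and 0.63 for Sirt2 and Sirt3 (rho 0.60). The lowest were -0.63 for Sirt1 and Sirt6 (rho -0.60) and -0.49 for Sirt1 and Sirt7 (rho -0.45). So, within groups, mice with more Sirt1 had less Sirt6, while the r of Sirt6 and Sirt7 was 0.42 (rho 0.39). All values come from the same libraries and scaling, and the low counts of Sirt6 add noise. With scaling by library size only, the r of Sirt2 and Sirt7 was 0.54 and that of Sirt1 and Sirt6 was -0.54. With group means kept, the r of Sirt2 and Sirt7 was 0.05 and that of Sirt1 and Sirt6 was -0.63.

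**Figure D5:**
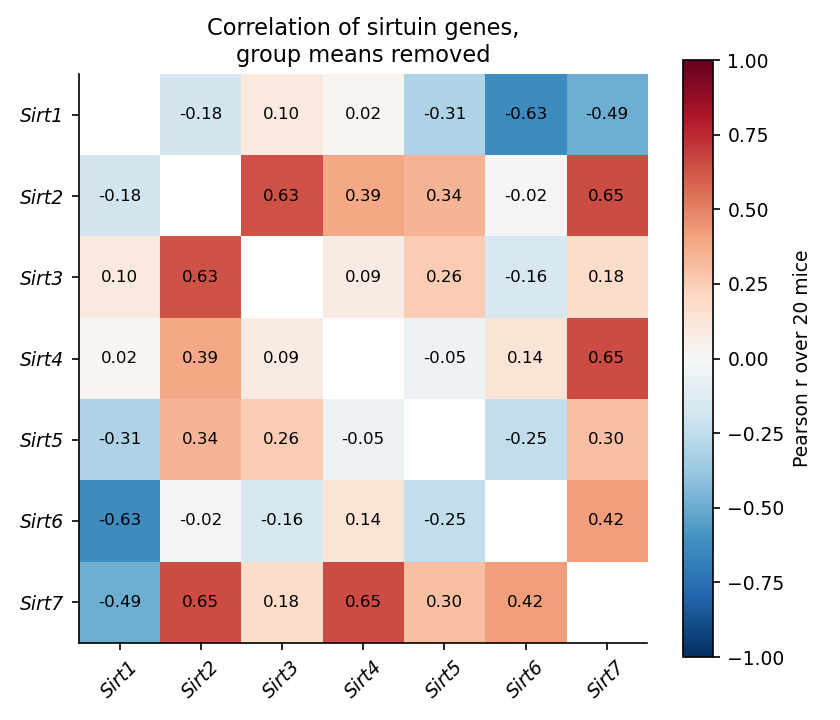
Pearson r between sirtuin genes over 20 mice in log2 CPM with group means removed. Sirt1 has its lowest values with Sirt6 (-0.63) and Sirt7 (-0.49), and Sirt2 has its highest with Sirt7 (0.65) and Sirt3 (0.63).

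Genes of the whole table were ranked by the same r for each sirtuin. The nearest to Sirt2 were Lonp1, a protease of mitochondria (r = 0.91, rho 0.84), Ctsh, a lysosomal cathepsin (r = 0.89), and Chmp3, of the ESCRT machinery (r = 0.89). Nearest to Sirt3 were H2afv, a histone variant (r = 0.90), Rbpms2, an RNA-binding protein (r = 0.88), and 1810058I24Rik (r = 0.88), whose r with the clock score was 0.80. For Sirt5 they were Mettl5, a methyltransferase of ribosomal RNA (r = 0.82), Mipep, a peptidase of mitochondria (r = 0.80), and Thnsl2 (r = 0.79). For Sirt4 they were Ugt2b36, a glucuronosyltransferase (r = 0.82), Pdilt (r = 0.81) and Cnnm2, linked to magnesium transport (r = 0.80). For the nuclear members they were Arl6ip6 (r = 0.93), AI987944 (r = 0.87) and the Polycomb ligase Rnf2 (r = 0.87) with Sirt1; Utp18 (r = 0.84), the acetyltransferase Kat2a (r = 0.83) and Ppp2r5b (r = 0.80) with Sirt6; and Fbxl15, Ecsit and Ghdc (all r = 0.87) with Sirt7. These are the highest of 15616 genes over 20 mice and are given as a description.

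Some sirtuin exons are shared with other genes, and whether strand was used in the counting is not given in the sources used here. Sirt3 shares 418 exon bases with Ric8a and 342 with Psmd13 on the other strand, out of 5973, and its start lies 341 bases from that of Psmd13. Sirt2 shares 42 exon bases with Nfkbib, whose start lies 777 bases away on the other strand. Nfkbib, an inhibitor of NF-kappaB, had a log2 fold change of 0.27 between Sirt2-/- and Control (standard error 0.22, edgeR adjusted p = 0.612) and 0.12 between Sirt2-/-/CE and CE (standard error 0.22, edgeR adjusted p = 0.971), while its group-centred Pearson r with Sirt2 over the 20 mice was 0.64. Ric8a and Psmd13 had log2 fold changes of 0.26 and 0.29 between Sirt2-/- and Control (standard errors 0.15 and 0.19, edgeR adjusted p = 0.443 and 0.498), and -0.03 and 0.17 between Sirt2-/-/CE and CE, where Sirt3 had -0.48 and 0.11 in the same comparisons. Sirt7 shares 124 exon bases with Mafg and 54 with Mir6936 on its own strand, Sirt1 shares 65 with the antisense gene Gm16145, which had 0 counts, and Dnajc12 and Ankrd24 start 739 and 743 bases from Sirt1 and Sirt6.

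Among the genes that make NAD, the shared cofactor, 1 passed the test between Sirt2-/- and Control. Of 19 tested genes of NAD synthesis, edgeR called 0 higher and 1 lower between Sirt2-/- and Control, where 0.89% of all genes were called. A positive fold change was held by 5 of the 19 and by 51.75% of all genes, and the median log2 fold change was -0.22, against 0.02 over all genes. The gene called was Haao, of the pathway from tryptophan, with 279.9 ± 47.6 CPM (SD, n = 5) in Sirt2-/- and 418.1 ± 36.5 in Control (log2 fold change -0.58, standard error 0.14, edgeR adjusted p = 0.0462). Its groups did not overlap, as for 3.61% of all genes, but the call was kept in only 1 of 10 fits that each left out 1 mouse, the one without Sirt2-/- replicate 13, and over the other 10 alternatives its adjusted p ran from 0.00288 to 0.331, with 5 calls. The log2 fold change of Haao ran from -0.65 to -0.53 in the former fits and from -0.66 to -0.44 in the latter. Nmrk1, a nicotinamide riboside kinase, had 18.5 ± 7.16 CPM in Sirt2-/- and 34.7 ± 4.85 in Control (edgeR adjusted p = 0.265). With group means removed, the r with the clock score was 0.11 for Haao, 0.45 for Nmrk1 and 0.84 for Nampt, the enzyme of the salvage pathway, named after its values were seen, and the part of the score in these values was not tested. Between CE and Control, 6 of the 19 had a positive fold change, against 48.99% of all genes, and 0 were called, with 4 at an unadjusted p under 0.05, where 10.7% of all genes had such a p, among them Nmnat3, the mitochondrial enzyme of the last step (3.45 ± 0.263 CPM in CE and 5.43 ± 0.907 in Control, edgeR adjusted p = 0.215), and Kynu (214.5 ± 60.0 and 126.2 ± 40.5, edgeR adjusted p = 0.271). DESeq2, which called 1.04% of all genes in this pair, called 0 of the 19, and limma voom, which called 3.46%, called 3. In Sirt2-/-/CE against Sirt2-/-, 12 had a positive fold change, against 50.92% of all genes, and 3 had an unadjusted p under 0.05, against 7.25% of all genes. In this pair 0 were called by edgeR, DESeq2 or limma voom, which called 0%, 0.0449% and 0% of all genes. Nmnat1, the nuclear enzyme of the last step, had 13.5 ± 2.41 against 10.46 ± 0.691 CPM (edgeR adjusted p = 0.563). Haao had 361.2 ± 59.5 against 279.9 ± 47.6 CPM in this pair (log2 fold change 0.37, edgeR adjusted p = 0.574), of the sign opposite to its difference between Sirt2-/- and Control, which shares the Sirt2-/- mice.

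Among 17 other genes that use NAD or divert its precursors, edgeR called 0 in each of the 8 comparisons, where it called 0% to 0.89% of all genes. At an unadjusted p under 0.05 there were 0 to 4 per direction, against 6.09% to 14.9% of all genes in both directions, and DESeq2 and limma voom called at most 1 in a comparison, against up to 3.86% and 5.8% of all genes. Between Sirt2-/- and Control 11 had a positive and 6 a negative fold change, against 51.75% of all genes with a positive one, with a median of 0.16 against 0.02 over all genes and 2 at an unadjusted p under 0.05, namely Parp9 (49.7 ± 7.42 and 38.0 ± 3.52 CPM, edgeR adjusted p = 0.237) and Parp2 (6.70 ± 3.22 and 4.51 ± 0.929 CPM, edgeR adjusted p = 0.287), both of the ADP-ribosyltransferase family. The r of Parp2 with the clock score was -0.75. Nnmt, which methylates nicotinamide, had 255.3 ± 100.9 CPM in CE and 121.1 ± 72.0 in Control (log2 fold change 1.08, standard error 0.47, edgeR adjusted p = 0.418). Parp3 had 13.4 ± 2.76 CPM in Sirt2-/-/CE against 19.7 ± 2.14 in Sirt2-/-, without overlap (log2 fold change -0.55, standard error 0.14, edgeR adjusted p = 0.503). The share of all genes without overlap in this pair was not computed. Parp10 was at 14.9 ± 3.62 CPM in CE against 21.95 ± 5.40 in Control (edgeR adjusted p = 0.309) and 14.6 ± 3.59 in Sirt2-/-/CE against 21.9 ± 3.09 in Sirt2-/- (edgeR adjusted p = 0.559), so it had the lower mean with cold in both genotypes. Art3, the rarest named here, was at 2.46 ± 1.41 CPM in Sirt2-/-/CE and 0.85 ± 0.487 in CE (edgeR adjusted p = 0.51).

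The enzymes that share or oppose the chemistry of sirtuins were also measured. Of 11 zinc-dependent deacetylases, 0 were called in each of the 8 comparisons by edgeR, DESeq2 or limma voom, which called at most 0.89%, 3.86% and 5.8% of all genes. The median log2 fold change between Sirt2-/- and Control was 0.17, with 8 positive and 3 negative, against a median of 0.02 and 51.75% positive over all genes. In the genotype and cold pairs, an unadjusted p under 0.05 was held by Hdac11 (40.2 ± 14.8 CPM in Sirt2-/- and 54.5 ± 6.65 in Control, edgeR adjusted p = 0.324) and, between Sirt2-/-/CE and CE, Hdac1 (21.97 ± 2.32 and 17.8 ± 0.775 CPM, without overlap, as for 1.22% of all genes, edgeR adjusted p = 0.613). Of 12 lysine acetyltransferases edgeR called 0 in each comparison, with 2 higher and 1 lower at an unadjusted p under 0.05 between Sirt2-/- and Control (14.9% of all genes), where DESeq2 called 0 and limma voom, which called 5.8% of all genes, 1. Kat2b and Kat2a are paralogs, and whether the counting split reads between them was not tested. They differed in opposite directions between Sirt2-/- and Control, by -0.79 and 0.40 on the log2 scale (standard errors 0.25 and 0.14, edgeR adjusted p = 0.123 and 0.18). Between CE and Control, Kat8, which acetylates histone H4, had 14.6 ± 1.73 and 11.2 ± 1.60 CPM (edgeR adjusted p = 0.30) and Atat1, the tubulin acetyltransferase that opposes Sirt2, had 8.64 ± 1.88 and 5.08 ± 1.97 CPM (edgeR adjusted p = 0.315). Of 12 regulators of sirtuins, such as Ccar2, which inhibits Sirt1, edgeR, DESeq2 and limma voom called 0 in each comparison, against the same shares of all genes, with at most 2 at an unadjusted p under 0.05, where 6.09% to 14.9% of all genes had such a p. Ccar2 was at a log2 fold change of 0.28 (standard error 0.13, edgeR adjusted p = 0.322) between Sirt2-/- and Control and Hic1, a repressor of Sirt1, at 1.11 (standard error 0.34, edgeR adjusted p = 0.51) between Sirt2-/-/CE and CE.

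Messenger RNAs of known sirtuin substrates were read as a last group. Of 19 substrates of the nuclear and cytosolic members, 1 was called lower and 0 higher between Sirt2-/- and Control, where 0.89% of all genes were called. Of the 19, 9 had a positive fold change, with a median of -0.10, against 51.75% and a median of 0.02 over all genes. The gene called was Acss2, the cytosolic acetyl-CoA synthetase that Sirt1 deacetylates, with 65.1 ± 21.2 CPM in Sirt2-/- and 185.9 ± 18 in Control (log2 fold change -1.51, standard error 0.28, edgeR adjusted p = 0.0271, no overlap, as for 3.61% of all genes). In Sirt2-/-/CE it had 121.1 ± 43.6 CPM, 0.90 above Sirt2-/- on the log2 scale (standard error 0.28, edgeR adjusted p = 0.53). The call was lost without Control replicates 1 or 2 or Sirt2-/- replicates 12, 14 or 15, the highest adjusted p being 0.0968, and with the clock score as a covariate or without the 4 mice of lowest score, the highest being 0.321. The log2 fold change of Acss2 ran from -1.67 to -1.39 over fits that each left out 1 mouse and from -1.52 to -1.23 over the other alternatives. Gckr, the regulator of glucokinase, had 78.8 ± 6.70 and 107.3 ± 14.8 CPM in Sirt2-/- and Control, without overlap (edgeR adjusted p = 0.0882), and Gabpb1, a subunit of a transcription factor of mitochondrial genes, had 4.99 ± 1.13 in Sirt2-/-/CE and 8.29 ± 2.21 in Sirt2-/- (edgeR adjusted p = 0.503). Between CE and Control, the bile acid receptor Nr1h4 had 95.4 ± 14.5 and 127.1 ± 24.9 CPM (edgeR adjusted p = 0.41) and Foxo1, a transcription factor of glucose production, had 44.6 ± 18.7 and 29.7 ± 3.35 CPM (edgeR adjusted p = 0.416).

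Of 20 substrates of the mitochondrial members edgeR called 0 in each comparison, where it called 0% to 0.89% of all genes. At most 3 in a direction had an unadjusted p under 0.05, against 6.09% to 14.9% of all genes in both directions. DESeq2 and limma voom called 1 each, between Sirt2-/- and Control, near their shares of 3.86% and 5.8% of all genes. The fold changes of these substrates were positive for 3 of 20 between CE and Control at a median of -0.09, against 48.99% and -0.01 over all genes, and for 7 of 20 between Sirt2-/- and Control at a median of -0.10, against 51.75% and 0.02 over all genes. Ppif, of the permeability pore, had 32.3 ± 4.86 CPM in CE and 43.8 ± 3.23 in Control without overlap (edgeR adjusted p = 0.43). The share of all genes without overlap between CE and Control was not computed. Otc, a urea cycle enzyme, had 352.1 ± 55.1 CPM in Sirt2-/- and 458.4 ± 56.3 in Control (edgeR adjusted p = 0.135). Dlat, of the pyruvate dehydrogenase complex, had 54.5 ± 10.6 CPM in Control, 43.4 ± 6.35 in CE (edgeR adjusted p = 0.461) and 39.7 ± 6.03 in Sirt2-/- (edgeR adjusted p = 0.16). With cold in the knockout, Glud1, glutamate dehydrogenase, differed by 0.24 on the log2 scale (standard error 0.10, edgeR adjusted p = 0.6252). The interaction was positive for 18 of these 20 genes, with a median of 0.24, against 50.2% and 0.0016 over all genes. An unadjusted p under 0.05 was held by 2 of the 20, near the share of 8.34% of all genes. For the interaction 0 were called by edgeR, DESeq2 or limma voom, which called 0%, 0.268% and 0% of all genes.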

How the data were processed

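Libraries were made from poly(A)-selected RNA of 20 livers and read on a NovaSeq. The authors deposited 1 table with, per gene and mouse, raw read counts and FPKM values scaled to gene length and depth; the labels name the build mm10, and the aligner, counter, strand setting and annotation release are not given in the sources used here. Lines without a gene (9) were dropped, and 0 sample columns were unused. Counts were tested in R 4.3.3 with edgeR 4.0.16 (TMM, filterByExpr with a minimum count of 10 and total of 15, quasi-likelihood F test, 1 fit of 20 libraries by group) in 8 contrasts, with p adjusted over 15616 genes and called under 0.05. The test was checked on simulated counts. Fits with DESeq2 1.42.0, limma 3.58.1, other scaling, filters, FPKM + 1 on the log2 scale, a clock covariate and left-out mice were alternatives. Intervals cover 95%. Groups came from the labels. Sequences and positions came from GENCODE vM21 on GRCm38, aligned with MAFFT 7.526.

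The members, gene lists, clock score and tests were chosen with earlier results of these data known. Named genes were the 7 sirtuins, list members with an adjusted p under 0.05 in any contrast or, in the 2 genotype and 2 cold pairs, the 2 lowest p under 0.05 at most, the 3 genes most alike to each sirtuin, and genes that share exons or start within 1000 bases. One list member that this rule names is not reported here. Total counts per mouse were 35499796 to 53917339. Nothing says whether mice shared a litter or cage, so the mice may not be independent. Each p-value sets a difference against the spread between these mice.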

Additional observations from a re-analysis of the deposited data

Results flagged for a closer look

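In the 28 combinations of sirtuin and group, each with 5 mice, 2 held a mouse whose gap to its nearest neighbour took up most of the range of its group, and chance alone flags about 1 in 20. Sirt2 in Sirt2-/-/CE replicate 16 was 27.5 CPM, above the other 4 mice of its group, a gap of 0.713 of the range in log2 CPM. Sirt4 in Sirt2-/-/CE replicate 20 was 3.75 CPM, below the other 4 mice, a gap of 0.748 of the range. For Sirt3, which passed no test with cold in either genotype, all 5 CE mice lay below the Control mean and all 5 Sirt2-/-/CE mice above the Sirt2-/- mean. The difference between the 2 responses was 0.60 on the log2 scale, and its test, the interaction in edgeR, gave an adjusted p of 0.529.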

How the results depend on the processing

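No paired analysis was possible because the groups held different mice and the labels give no pairing. Of 1309 values of the 7 sirtuins under alternatives, 1218 kept direction and side of the threshold, 8 lost the call, 1 gained it and 82 changed sign, none of the last called. The count of sirtuins called between Sirt2-/- and Control was 2 with limma voom, which called 5.8% of all genes. It was 0 with the clock score as a covariate and without the 4 mice of lowest clock score, where 0 of 15616 and 0 of 15982 genes were called. Between Sirt2-/-/CE and CE it was 0 with only the 2 groups compared, where 0 of 14603 genes were called. Between Sirt2-/-/CE and Control it was 0 with the clock covariate, where 1 of 15616 genes was called, and leaving out 1 mouse gave 0 to 1. The causes were not tested. Genes called over the table ran from 0 to 906 between Sirt2-/- and Control, 0 to 540 between CE and Control, 0 to 8 with cold in the knockout, 0 to 33 between Sirt2-/-/CE and CE, 0 to 340 between Sirt2-/-/CE and Control, 1 to 319 for genotype, 0 to 74 for cold and 0 to 45 for the interaction. Low counts limit Sirt6, with 35 to 127 per mouse.

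The sign changes, in log2 fold change, were these. With limma voom, Sirt4 was 0.015 in CE against Control, Sirt4 was 0.0025 in Sirt2-/-/CE against Sirt2-/-, Sirt1 was 0.022 and Sirt5 was -0.040 in Sirt2-/-/CE against Control, Sirt6 was -0.036 for genotype over both treatments, Sirt3 was -0.042 and Sirt4 was 0.0088 for cold over both genotypes and Sirt1 was -0.11 for the interaction. With upper-quartile scaling, Sirt7 was -0.014 in CE against Control and Sirt6 was 0.0020 in Sirt2-/-/CE against Control. With library size only, Sirt7 was -0.022 in CE against Control, Sirt4 was 0.092 and Sirt7 was 0.11 in Sirt2-/- against Control, Sirt6 was 0.045 in Sirt2-/-/CE against Control, Sirt4 was 0.028 for genotype over both treatments and Sirt3 was -0.014 for cold over both genotypes. With limma on log2(FPKM + 1), Sirt4 was 0.015 and Sirt7 was -0.0026 in CE against Control, Sirt4 was 0.16 and Sirt7 was 0.081 in Sirt2-/- against Control, Sirt6 was 0.048 in Sirt2-/-/CE against Control, Sirt4 was 0.036 for genotype over both treatments and Sirt1 was -0.010 for the interaction. With the clock covariate, Sirt7 was -0.00042 in CE against Control, Sirt1 was 0.067 and Sirt3 was 0.11 in Sirt2-/-/CE against Control and Sirt1 was -0.12 for the interaction. Without the 4 mice of lowest score, chosen after seeing the data, Sirt1 was -0.28 and Sirt2 was 0.0093 in Sirt2-/-/CE against Sirt2-/-, Sirt6 was 0.041 in Sirt2-/-/CE against Control, Sirt1 was -0.10, Sirt3 was -0.029 and Sirt6 was 0.020 for cold over both genotypes and Sirt1 was -0.36 for the interaction.

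Leaving out 1 mouse at a time gave these ranges for members whose sign changed. In CE against Control they were -0.067 to 0.23 for Sirt1, -0.12 to 0.047 for Sirt4, -0.048 to 0.24 for Sirt6 and -0.065 to 0.081 for Sirt7. In Sirt2-/- against Control they were -0.19 to 0.043 for Sirt4 and -0.13 to 0.039 for Sirt7. In Sirt2-/-/CE against Sirt2-/- they were -0.066 to 0.25 for Sirt1, -0.13 to 0.069 for Sirt2, -0.22 to 0.011 for Sirt4 and -0.17 to 0.029 for Sirt5. In Sirt2-/-/CE against Control they were -0.089 to 0.12 for Sirt5 and -0.18 to 0.11 for Sirt6. For cold over both genotypes they were -0.016 to 0.18 for Sirt1 and -0.031 to 0.12 for Sirt3. For the interaction they were -0.11 to 0.21 for Sirt1 and -0.18 to 0.059 for Sirt4.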
